A study of Homo sapiens with 9 samples.

Results

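GFP ChIP-seq, the sequencing of DNA recovered with an antibody to GFP, was compared between A498 cells that carry eGFP at ZNF395 and parental A498 cells that do not. The members are all peaks of the authors' 2 GFP lists for cells titled A498, 7718 from the tagged and 1563 from the parental library, together 9281 of the 52875 peaks in the 5 lists of the series. Peaks of both lists were paired wherever they overlapped by 1 bp or more. A tagged peak without a parental peak is called gained, a parental peak without a tagged peak is called lost, and overlapping peaks are called common. These words describe the lists and not a measured change at a site.

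A498 is an established human line derived from a renal cell carcinoma. The tagged cells had received a guide plasmid and a donor plasmid that place an EGFP tag downstream of ZNF395. No source used here says whether they were 1 clone or a pool. The parental cells are A498 without the knock-in, precipitated with the same GFP antibody, and each list was called against a control library of its own. Both groups were 1 library, so no difference below has a replicate check and no p-value is given. The titles name A498, while the cell line field of the same samples names 786-O, another renal carcinoma line; a peak list holds no marker expression with which to check the line. Lists of 786-O cells, from a tagged and a parental GFP library and a MYC library, serve below for comparison. The MYC sample is titled MYC and names a c-Myc antibody, while its target field names P300. MYC is a transcription factor bound at many active promoters.

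ZNF395 is a C2H2 zinc finger transcription factor, also known as HDBP2 and PBF, that was described as a DNA-binding protein of the huntingtin promoter and has been linked to hypoxia and interferon responses. In a ChIP through a tag, the antibody reads the tag, and the same antibody in untagged cells shows where DNA is recovered without any tagged protein. Such untagged recovery is known to be frequent at repeats that a reference assembly holds in too few copies, such as satellite DNA beside centromeres, and at highly transcribed genes. Scores are the authors' and were read as −log10 of a p or q; they rank peaks within 1 list and are not compared in size between lists. Positions are those of hg19, counted from 1, and where only a start is given the peak is named by it.

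Most tagged peaks had no counterpart in parental cells, and most parental peaks had none in tagged cells. Of the 7718 tagged peaks 7183 were gained (93.1%) and 535 were common. Of the 1563 parental peaks 1014 were lost (64.9%) and 549 were common. The gained peaks covered 2140 kb, the common peaks 240.2 kb of the tagged list, and the lost peaks 185.6 kb. The smallest overlap that made a pair was 1 bp, between a tagged peak at 6643847 to 6644073 on chromosome 12 (score 5.51) and a parental peak that ends on its first base. Just outside, a gained peak at 26055141 to 26055308 on chromosome 6 (score 5.77) lay 1 bp from a parental peak, and the nearest lost peak, at chr14:20811320-20811458 (score 3.20), lay 37 bp from a tagged one. Pairs this slight were few: 3 of the 570 pairs overlapped by less than 20 bp. Of the lost peaks 163 lay within 1 kb of a tagged peak and 423 within 10 kb, and of the gained peaks 80 and 207 lay that near to a parental peak.

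The 15 gained peaks of highest score ranged from 122 to 223 in score and from 610 to 1677 bp in width. All 15 also had a GFP peak in tagged 786-O, against 56.6% of all tagged A498 peaks. A MYC peak of 786-O lay at 12 of them, against 46.8% of that list, and a GFP peak of parental 786-O at 4, against 15.4%. These 15 were picked for score. In the highest 10% of gained peaks by score, 92.8% had a tagged 786-O, 81.2% a MYC and 22.8% a parental 786-O peak. None of the 15 lay in a cluster, here a chain of 5 or more peaks of both A498 lists with gaps of 10 kb or less. The peak at chr11:8008542-8009322 led the A498 list with a score of 223, had rank 1 in tagged 786-O as well, and lay 1586 kb from the nearest parental A498 peak. The peak at chr16:4233597-4234597, with a score of 222, had rank 34 in tagged 786-O and rank 525 among MYC peaks. The peak at chr4:106629544-106630153 (score 180) stood farthest of the 15 from any parental A498 peak, at 22578 kb, and overlapped a parental 786-O peak of rank 1111. On chromosome 5 the peak at 25544737 to 25545431 (score 139) and on chromosome 9 the peak at 110103139 to 110103820 (score 129) had ranks 2 and 17 in tagged 786-O and no MYC peak.

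Within the 15, distance from parental signal was not uniform. The peak at chr16:3070097-3071773 (score 136), the widest of them with 1677 bp, lay 1.88 kb from a parental A498 peak and overlapped a parental 786-O peak of rank 419. The peak at chr2:132249817-132250880 (score 131) and that at chr17:8286345-8287278 (score 122) lay 746.5 and 155.9 kb from the nearest parental A498 peak. Their tagged 786-O counterparts had ranks 31 and 25, and their MYC counterparts ranks 4008 and 1909. The remaining 7 of the 15 were at chr1:46598193, 184020634 and 222817261, at chr19:49622109, at chr16:68298004, at chr12:4429990 and at chr11:34379018, with scores of 187, 175, 156, 175, 157, 156.3 and 151. Each of these 7 had a MYC peak.

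Below these leading sites the gained list was made mostly of weak peaks. Gained peaks had a median score of 5.46 (95% interval 5.37 to 5.56), with 25% at or below 3.96 and 10% at or above 13.1. Common peaks of the tagged list had a median of 13.5 (12.4 to 14.6), and gained minus common was -8.002. In the parental list the lost peaks had a median score of 11.98 (11.003 to 12.98) and the common peaks 19.7 (18.1 to 21.9), and lost minus common was -7.76. Gained and lost peaks thus had the lower median in their own list, but not throughout: ranks 1 and 2 of the tagged list were gained peaks, and 535 of the 771 peaks in its top 10% were gained, against 93.1% of the whole list. Score and width are not independent of these classes, since a strong or wide peak meets a peak of another list more easily.

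**Figure D1:**
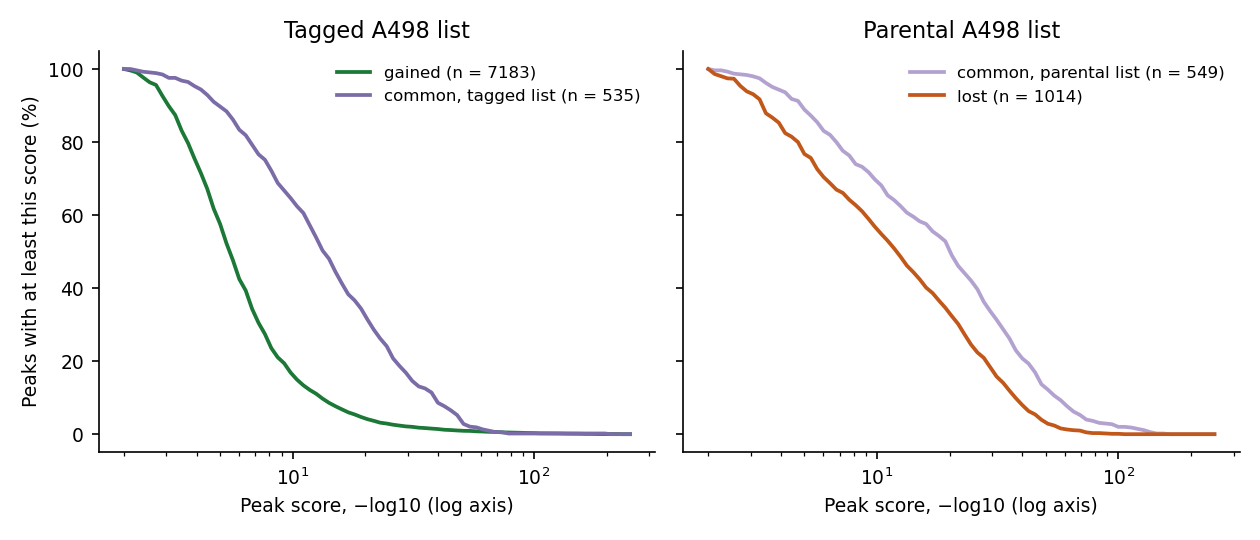
Share of peaks (vertical axis, %) whose score reaches the value on the horizontal log axis, for gained and common peaks of the tagged A498 list (left) and common and lost peaks of the parental list (right); each line is 1 class of 1 library. At the medians, gained peaks stand at 5.46 against 13.5 for common peaks, and lost peaks at 11.98 against 19.7.

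The share of peaks with a partner in the other list was highest in the strongest decile of each list. In the tagged list it was 1.68% (0.900 to 2.86) in the lowest decile by score (a decile is 10% of a list), 0.907% (0.365 to 1.86) in the next, 3.24% in the sixth decile and 30.6% (27.4 to 34.0) in the highest decile, which began at a score of 15.3. In the parental list it was 15.9% (10.6 to 22.6) in the lowest decile, stayed between 27.6% and 41.7% in the 8 deciles between, and reached 62.2% (54.1 to 69.8) in the highest. Strong parental peaks were therefore not all found again: 59 of the 156 strongest were lost.

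**Figure D2:**
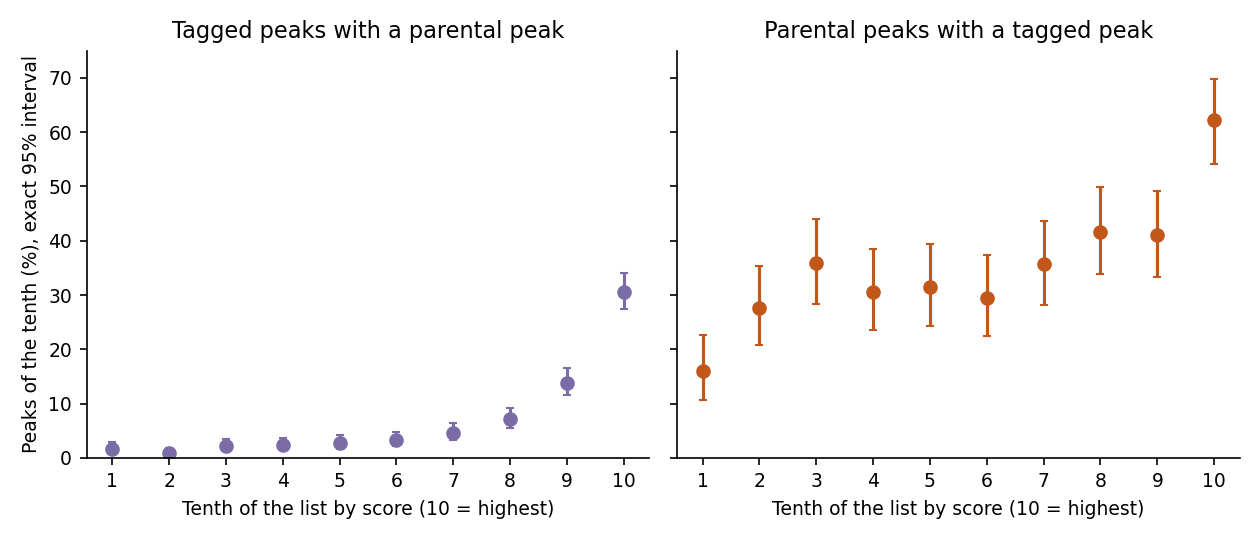
Share of peaks (vertical axis, %) that overlap a peak of the other A498 list, by decile of the list by score (horizontal axis, 10 is highest), with exact 95% binomial intervals; left, tagged peaks with a parental peak, right, parental peaks with a tagged peak. The highest decile reaches 30.6% in the tagged and 62.2% in the parental list.

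Gained peaks had a median width of 243 bp (239 to 246), against 308 bp (285 to 330) for common peaks of the tagged list. The order turned when the tagged list was limited to its 1563 highest peaks: gained peaks were then 85.5 bp wider at the median than common ones. In the highest decile of tagged scores the 535 gained peaks had a median of 458 bp, the 165 common peaks inside clusters 234 bp, and the 71 common peaks outside clusters 491 bp. Within this group the common peaks inside clusters had the smallest median width. Lost peaks were narrow, with a median of 142 bp (138 to 145), against 231 bp (213 to 244) for common peaks of the parental list. Each list has its own smallest width, 166 bp in the tagged and 112 bp in the parental list, so widths are compared only within a list. That smallest width was held by 541 gained (7.53%) and 4 common tagged peaks (0.748%), and by 83 lost (8.19%) and 8 common parental peaks (1.46%).

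The widest gained peaks were at chr2:85197417-85199324 (1908 bp, score 22.9), at chr5:172192282-172194161 (1880 bp, score 10.9), at chr16:3070097, at chr17:1617980 (1599 bp, score 21.0) and at chr19:18391452 (1420 bp, score 26.1). All 5 overlapped a parental 786-O peak, against 15.4% of all tagged A498 peaks, but they were picked for width and wide peaks overlap more easily. The widest lost peak lay at chr5:57747193-57749460, with 2268 bp and a score of only 8.50. The next were at chr11:1753021 and 1756695 and at chr10:74035988 and 5027186, with widths of 833 to 992 bp.

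The pairing rule keeps the peaks of a pair close, so their distances are a description. The median distance between the midpoints of the tagged and the parental peak was 49.8 bp over 570 pairs, and in 354 pairs (62.1%) the narrower peak lay wholly inside the wider. Most were simple pairs: 481 joined 1 tagged with 1 parental peak. Scores of both peaks of a pair had a Spearman correlation of 0.38 across all 570 pairs and 0.47 across the 551 outside the mitochondrial genome. Among the latter it was 0.52 in clusters and 0.35 outside them; pairs within a cluster share a locus and are not independent.

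The common site of lowest rank sum lay on chromosome 17, where the tagged peak at 19091231 to 19091703 had rank 3 (score 206) and the parental peak at 19091271 to 19091592 had rank 4 (score 135). The next sites were at chr1:147994079 (tagged rank 38, parental rank 6), at chr1:16839456 (ranks 56 and 1), at chr17:41438272 (ranks 48 and 11), at chr17:18966746 (ranks 51 and 8) and at chr1:149222595 (ranks 63 and 14). These 6 lay outside clusters and were 473 to 1786 bp wide in the tagged list. The other 4 of the 10 lay in clusters and were 168 to 543 bp wide. They were at chr9_gl000199_random:44921 and 72666, with tagged ranks 36 and 58, at chrX:61717795 (rank 80) and at chr2:92291384 (rank 62). All 10 had a GFP peak in both tagged and parental 786-O, and 2, those at chr1:16839456 and at chr17:41438272, had a MYC peak. Over all common tagged peaks the shares were 86.0%, 81.7% and 30.8% in the tagged, parental and MYC lists of 786-O, and over all tagged A498 peaks 56.6%, 15.4% and 46.8%.

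Some common sites stood high in 1 list and low in the other. On chromosome 5 the tagged peak at 137805050 to 137806307 ranked 258 of 7718 (score 28.5), while 1 of the 2 parental peaks inside it, of 190 bp, ranked 1548 of 1563 (score 2.09). The tagged peaks at chr17:70588867 (rank 537) and at chr5:172195621 (rank 513) overlapped parental peaks of ranks 1530 and 1496. Conversely, the parental peak at chr12:120729006-120729842 ranked 28 (score 73.5), and 1 of the 2 tagged peaks that overlapped it, at 120728991, ranked 7130 (score 2.94). Parental peaks at chrY:13843683 and 13453125, at chr10:46090246 and at chr16:46390674 had ranks 137, 551, 423 and 615, and a tagged peak at each had a rank between 7049 and 7660. Ranks are places within lists of different length and do not measure a change.

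The mitochondrial genome differed in how it was divided into peaks. The tagged list held 3 peaks there, of 4515, 861 and 10858 bp with scores of 56.2, 45.3 and 35.7, and the parental list held 19, of which 14 fell inside the longest tagged peak. All of them were common.

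The 10 lost peaks of highest score ranged from 69.5 to 106 in score, and 8 of them lay in clusters. The strongest, at chrX:53935305-53935472 (score 106, 168 bp), had rank 12 in the parental list and lay 1089 kb from the nearest tagged A498 peak. It was called in parental 786-O with rank 190 and in tagged 786-O with rank 6250. The second, at chr17:8076445-8076989 (score 90.3, 545 bp), lay 13.8 kb from a tagged A498 peak and had rank 52 in parental and rank 6870 in tagged 786-O. The other 8 were 129 to 157 bp wide. They lay at chr8:43822404 and 43821078, at chr9_gl000199_random:165670, 160698, 44218 and 109719, at chr2:92269435 and at chrX:61685244. Of all 10, 7 had a parental 786-O peak, against 46.9% of all parental A498 peaks. A tagged 786-O peak lay at 6, against 51.9% of that list, and a MYC peak at none, against 15.9%. These 10 were picked for score. In the highest decile of parental A498 scores, 82.7% of peaks were in parental and 76.9% in tagged 786-O.

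Of the 10 strongest lost peaks outside clusters, 6 were also found in both GFP lists of 786-O. With clustered peaks included, so were 207 of all 1014 lost and 419 of the 549 common parental peaks. Among these, 107 of the 207 and 245 of the 419 lay in clusters. Over all 614 lost peaks outside clusters, 20.7% had a parental and 29.3% a tagged 786-O peak. After the peaks on chromosomes X and 17 named above, the others of the 6 were at chr17:41393179 (score 68.8) and 41445027 (score 55.1), at chr1:145382697 (score 54.5) and at chr6:42230186 (score 52.2), each with a peak in both. Those at chr3:90492287 (score 57.0), at chr19:24614333 (score 51.5), at chr5:49410185 (score 50.3) and at chr1_gl000192_random:544773 (score 49.3) had none in either. These 10 were chosen after the values were seen.

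Lost peaks were found in parental 786-O far less often than common ones. A parental 786-O peak overlapped 291 of the 1014 lost peaks (28.7%, 25.9 to 31.6) and 442 of the 549 common ones (80.5%, 76.9 to 83.7), against 46.9% of all parental A498 peaks. A tagged 786-O peak overlapped 338 lost peaks (33.3%, 30.4 to 36.3), where 51.9% of all parental peaks had one, and 473 common peaks (86.2%, 83.0 to 88.9). MYC peaks were at 87 lost peaks (8.58%, 6.93 to 10.5) and 161 common ones (29.3%, 25.5 to 33.3), against 15.9% of the parental list. By their presence in the 786-O GFP lists, 592 lost peaks were in neither, with scores of 8.91 and widths of 133 bp at the median. The 207 in both scored 22.3 at the median and were 176 bp wide. The 84 in parental 786-O alone had a median score of 24.3 and the 131 in tagged 786-O alone 10.1. The common peaks in both numbered 419 and had a median score of 22.2, close to that of lost peaks in both. In the highest decile of lost peaks by score 67.3% (57.3 to 76.3) were in parental 786-O, and in the lowest decile 6.86% (2.80 to 13.6).

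In the whole lists, common and lost peaks lay nearer at the median to others of their class than gained peaks did. The median distance from a gained peak to the nearest other gained peak was 63.5 kb, and 19.4% (18.5 to 20.3) had one within 10 kb. Lost peaks had a median of 10.5 kb, with 49.6% (46.5 to 52.7) within 10 kb of another lost peak, although they were fewer. Common peaks of the tagged list had a median of 3.598 kb, and 57.0% (52.7 to 61.2) lay within 10 kb of another. The distances of common peaks fell into near and far ones: 25% were within 0.39 kb and 25% beyond 1393 kb. The order thus turned at larger distances, where 25% of lost peaks lay beyond 817 kb and 25% of gained peaks beyond 174 kb. With clustered peaks left out, 19.9% of lost and 18.1% of gained peaks lay within 10 kb of another, with overlapping intervals (16.8 to 23.2 and 17.2 to 19.04).

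**Figure D3:**
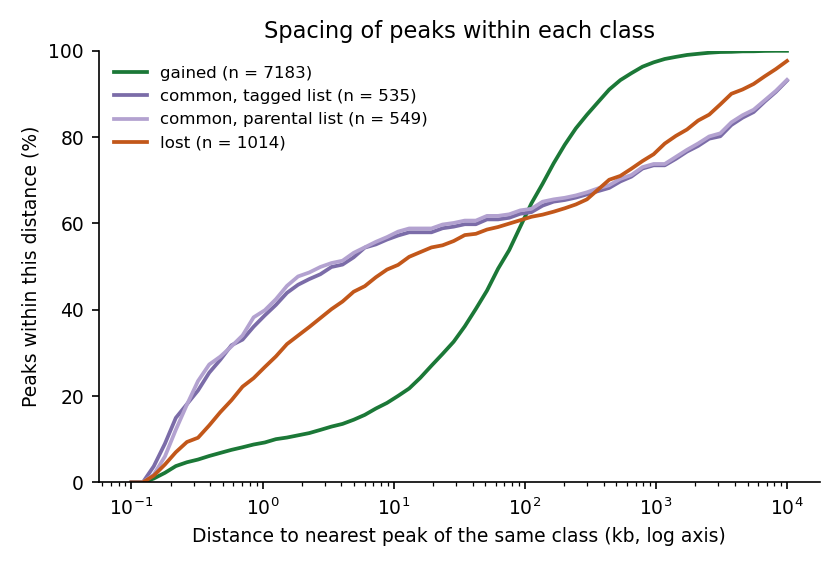
Cumulative share of peaks (vertical axis, %) by distance to the nearest peak of the same class (horizontal log axis, kb), for the 4 classes of A498 peaks. At 10 kb the lines stand at 19.4% for gained, 49.6% for lost and 57.0% for common peaks of the tagged list, and all 4 meet near 100 kb, at 60.9% to 63.4%. At larger distances the line of gained peaks stands highest.

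The rule for clusters was chosen after the values were seen. It counts peaks of both A498 lists, so a common peak brings its partner and enters a cluster more easily by construction. Leaving clusters out therefore favours lower shares of peaks with a partner. There were 86 clusters, with a total length of 1370 kb. They held 400 lost peaks (39.4%), 320 common parental peaks (58.3%), 307 common tagged peaks (57.4%) and 141 gained peaks (1.96%). In 53 clusters parental peaks outnumbered tagged ones, in 29 tagged peaks outnumbered parental ones, and 37 held no gained peak. With clustered peaks left out, the tagged peaks that met a parental one were 3.14%, against 6.93% in the whole list, and the parental peaks that met a tagged one 27.2%, against 35.1%.

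The 2 largest clusters held 76 peaks each. That on chromosome 16 from 46385868 to 46435566 had 31 tagged and 45 parental peaks and no gained peak. That on chromosome 4 from 49093367 to 49163657 had 13 tagged and 63 parental peaks, of which 52 were lost. On chromosome 10 from 42355480 to 42409366 there were 22 tagged and 50 parental peaks, and on chromosome 2 from 92269435 to 92325881 there were 23 and 36; neither held a gained peak. Each of these 4 lay within 1 Mb of a stretch without a peak in any of the 5 lists, 3.05 to 3.34 Mb long on chromosomes 4, 10 and 2 and 11.1 Mb long on chromosome 16. The centromere gaps of the assembly are stretches without sequence. The contig 9_gl000199_random from 24070 to 137024 held 17 tagged peaks, of which 8 were gained, and 31 parental peaks, of which 22 were lost. Its longest stretch without a peak was 0.0131 Mb. On chromosome Y from 13448644 to 13490062 there were 26 tagged peaks, of which 9 were gained, and 28 parental peaks. A stretch of 3.06 Mb without a peak lay within 1 Mb of that cluster. The cluster on chromosome 2 from 133011852 to 133039189, with 16 tagged and 29 parental peaks, lay beside no such stretch; the longest one near it was 0.509 Mb.

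By fixed windows of 1 Mb, the most lost peaks lay on chromosome 4 from 49 to 50 Mb, with 76 lost, 16 common parental and 12 gained peaks. Chromosome 10 from 42 to 43 Mb held 37 lost and 1 gained peak, chromosome Y from 13 to 14 Mb 32 and 12, the contig 9_gl000199_random 28 and 9, and chromosome 16 from 46 to 47 Mb 22 and 10. The windows fullest of gained peaks lay elsewhere, and each of the leading 5 held at most 1 common tagged peak. Chromosome 8 from 145 to 146 Mb held 32 gained A498, 38 tagged 786-O and 49 MYC peaks, and no parental A498 peak. Chromosome 16 from 0 to 1 Mb held 20 gained peaks and chromosome 17 from 79 to 80 Mb also 20, beside 42 and 58 MYC peaks. Chromosome 8 from 144 to 145 Mb held 19 gained and 37 MYC peaks. On chromosome 5 from 2 to 3 Mb, 19 gained peaks stood beside 1 tagged 786-O peak and no MYC peak.

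Clusters of gained peaks without a parental peak were few and small. There were 7, of 5 or 6 peaks, among them chromosome 13 from 110435192 to 110439483, chromosome 8 from 145016521 to 145027107 and chromosome 9 from 139727232 to 139743278, each with 6. Clusters of lost peaks without a tagged peak numbered 3, on chromosome 10 from 39118006 to 39139711 with 8 peaks, chromosome 21 from 10765835 with 6 and chromosome 8 from 43092830 with 6.

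Position inside or outside a cluster went with different 786-O partners. Common tagged peaks outside clusters had a MYC peak in 58.3% (51.6 to 64.8) of cases and those inside clusters in 10.4% (7.24 to 14.4), against 46.8% of all tagged A498 peaks. Both had parental 786-O peaks at like shares, 80.3% outside and 82.7% inside, where 15.4% of all tagged A498 peaks had one. Lost peaks had a MYC peak in 12.5% (10.0 to 15.4) of cases outside and 2.50% (1.21 to 4.55) inside clusters, against 15.9% of all parental A498 peaks. Lost peaks inside clusters had a median score of 21.5 and those outside 7.56. Gained peaks inside clusters had a parental 786-O peak in 19.1% (13.0 to 26.6) of cases and those outside in 10.3% (9.64 to 11.1).

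The gained peaks divided by whether tagged 786-O cells had a peak at the same place. Of the 7183 gained peaks 3908 (54.4%, 53.2 to 55.6) had one, against 56.6% of all tagged A498 peaks, and 3275 had none. This share depended on the pairing rule: it was 16.4% with a 50% reciprocal overlap and 38.9% with midpoints within 200 bp. It was 89.9% when the tagged A498 list was cut to its 1563 highest peaks, the length of the parental A498 list. That cut leaves out the weaker gained peaks and does not bring A498 and 786-O lists to equal length. Over the full list, gained peaks with a tagged 786-O peak scored 6.99 (6.81 to 7.17) at the median and were 295 bp wide. Those without scored 4.49 (4.44 to 4.54) at the median and were 210 bp wide, and 12.7% of them were at the smallest width of the list, against 3.17% of the others. The share with a tagged 786-O peak was 30.7% (27.4 to 34.2) in the lowest decile of gained peaks by score and 92.8% (90.6 to 94.5) in the highest.

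Most MYC peaks at gained peaks were on one side of this division. A MYC peak lay at 48.0% of all gained peaks, against 46.8% of all tagged A498 peaks. Of the gained peaks with a tagged 786-O peak 3401 (87.0%, 85.9 to 88.1) had a MYC peak, and of those without 47 (1.44%, 1.06 to 1.90). The gap was present in every quartile of gained scores. In the lowest quartile of gained scores the shares were 86.1% (83.0 to 88.8) of 574 peaks with and 0.818% (0.393 to 1.4998) of 1222 peaks without a tagged 786-O peak. In the highest quartile, above a score of 7.95, they were 87.4% (85.7 to 89.0) of 1576 and 3.65% (1.59 to 7.07) of 219. The rise of the MYC share over the score deciles of gained peaks, from 26.4% to 81.2%, thus ran alongside the rise of the share with a tagged 786-O peak. The MYC and the tagged 786-O list come from the same cell line, and no MYC list of A498 was used. How far these lists of 786-O coincide over all their peaks is not given here. The 2 shares were 54.0% and 8.46% when pairing needed a 50% reciprocal overlap, and 65.8% and 10.6% with midpoints within 200 bp.

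**Figure D4:**
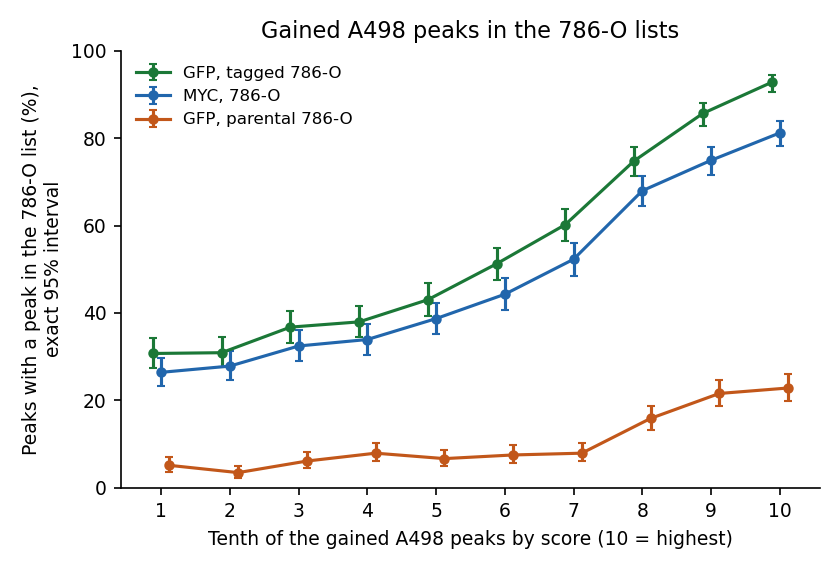
Share of gained A498 peaks (vertical axis, %) that overlap a peak of the tagged 786-O GFP list, the 786-O MYC list or the parental 786-O GFP list, by decile of gained score (horizontal axis, 10 is highest), with exact 95% binomial intervals. The tagged 786-O share goes from 30.7% to 92.8%, the MYC share from 26.4% to 81.2% and the parental 786-O share from 5.15% to 22.8%.

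Parental 786-O peaks lay at 755 gained A498 peaks (10.5%, 9.81 to 11.2), against 15.4% of all tagged A498 peaks. Of these, 741 also had a tagged 786-O peak, and 697 of the 741 had a MYC peak as well. These 697 scored 8.16 at the median and were 350 bp wide. The 2704 gained peaks with a tagged 786-O and a MYC peak but no parental 786-O peak scored 6.73 at the median and were 292 bp wide. The 463 gained peaks with a tagged 786-O peak alone also scored 6.73 at the median and were 241 bp wide; the leading peak on chromosome 11 is one of them. The largest part, 3224 peaks, was in none of the 3 lists of 786-O.

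Few gained peaks without a tagged 786-O peak were strong. The highest, at chr3:153839402-153839870, had a score of 73.4 and rank 40, and lay 3038 kb from the nearest parental A498 peak. The next, at chr2:47798417-47798804, had a score of 47.9 and rank 103. The other 8 of the 10 highest had scores of 25.4 to 36.4. They lay at chrX:61718939, at chr17:72747742, at chr4:49515493 and 49299123, at chr19:34286246, at chr7:5560685, at chr8:86785891 and at chr6:34205935. Of all 10, chosen after the values were seen, 4 lay in clusters. The peak on chromosome X lay 0.159 kb and that on chromosome 8 lay 0.25 kb from a parental A498 peak. Those at chr4:49515493, at chr7:5560685 and at chr4:49299123 lay 0.844, 1.38 and 5.23 kb from one. The rest lay 236.9 to 3038 kb away. Of all 7183 gained peaks 207 lay within 10 kb of a parental A498 peak.

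The same division went with different chromosome shares. Shares refer to chromosomes 1 to 22 and X only and were not scaled by chromosome length. Chromosome 2 held 14.2% (13.1 to 15.5) of the gained peaks without and 7.82% (6.99 to 8.70) of those with a tagged 786-O peak. Chromosome 7 held 13.5% (12.3 to 14.7) against 7.77% (6.94 to 8.65), chromosome 8 held 8.59% against 5.00%, and chromosome 5 held 7.69% against 5.20%. In the other direction, chromosome 3 held 1.36% (0.989 to 1.82) against 4.97% (4.31 to 5.70), chromosome 6 held 0.834% against 4.00%, chromosome 11 held 1.51% against 4.25%, and chromosome 14 held 0.278% against 1.54%. Chromosome X held 3.68% against 1.44% and chromosome 21 held 2.50% against 1.15%, while chromosome 18 held 0.0618% against 0.589%. All tagged 786-O peaks had 7.38% on chromosome 2, 5.92% on chromosome 7 and 5.34% on chromosome 3. The copy number of chromosomes in these cells was not measured, and its part in these shares was not tested.

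Chromosomes 2 and 7 stood above chromosomes 3 and 6 among both weak and stronger gained peaks. In the lower 50% of gained scores, 79.9% of the 398 gained peaks on chromosome 7 and 77.7% of the 431 on chromosome 2 had no tagged 786-O peak, against 26.0% of the 96 on chromosome 3 and 25% of the 64 on chromosome 6. In the upper 50% the shares were 34.8% on chromosome 7, 37.6% on chromosome 2, 13.4% on chromosome 3 and 9.24% on chromosome 6. Over all chromosomes they were 64.1% in the lower and 27.1% in the upper 50%. Chromosomes 2 and 7 did not stand highest. Chromosome 21 did in the lower 50%, with 81.0% of 79 gained peaks, and chromosome X in the upper 50%, with 55.1% of 69.

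**Figure D5:**
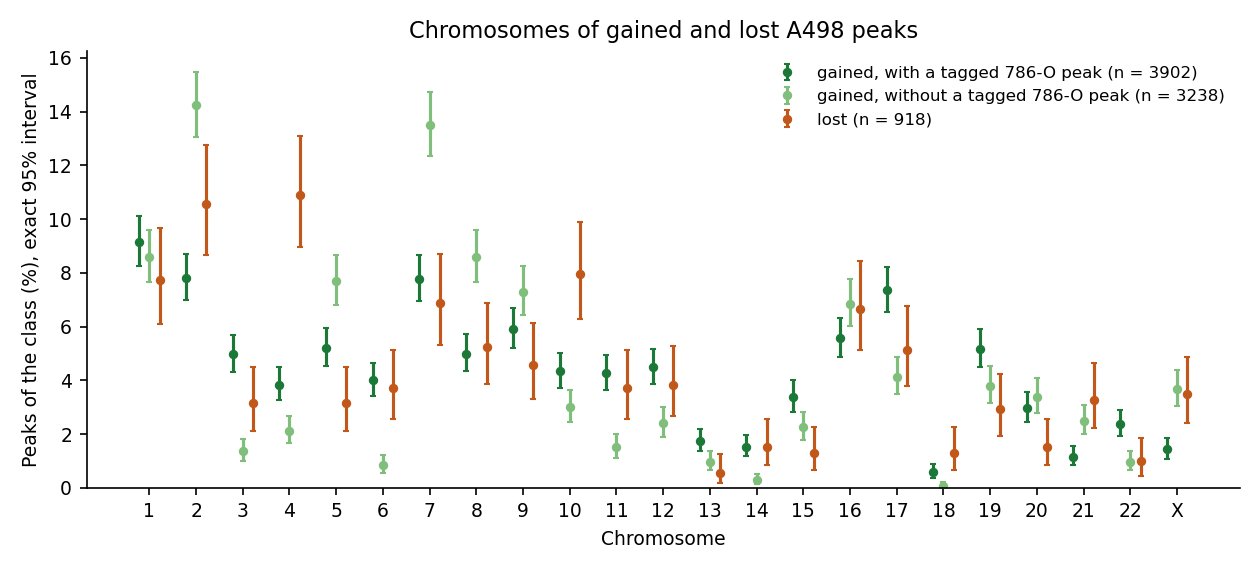
Share of the peaks of each class (vertical axis, %) on chromosomes 1 to 22 and X (horizontal axis), with exact 95% binomial intervals, for gained peaks with and without a tagged 786-O peak and for lost peaks. Gained peaks without a tagged 786-O peak reach 14.2% on chromosome 2 and 13.5% on chromosome 7 and fall to 0.0618% on chromosome 18, and lost peaks reach 10.9% on chromosome 4.

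Within a chromosome the gained peaks without a tagged 786-O peak were uneven too. Of the 307 windows of 10 Mb that held a gained peak, the 10 fullest of such peaks held 17.2% of them and 4.79% of the gained peaks with a tagged 786-O peak. They were ranked by the first count, so the first share is a description. Among all gained peaks 45.6% had no tagged 786-O peak. On chromosome 5 from 0 to 10 Mb 92 of 100 gained peaks had no tagged 786-O peak, and their window held 54 tagged 786-O peaks. On chromosome 2 from 0 to 10 Mb the count was 69 of 77, on chromosome 7 from 50 to 60 Mb 60 of 68, and on chromosome 8 from 130 to 140 Mb 52 of 60. On chromosome 2 from 130 to 140 Mb it was 44 of 53 and on chromosome X from 60 to 70 Mb 41 of 44. Chromosome 7 from 150 to 160 Mb held 74 such peaks, beside 26 with a tagged 786-O peak. The share was lower in the other 3 of the 10. It was 46 of 80 on chromosome 1 from 150 to 160 Mb and 42 of 70 on chromosome 19 from 50 to 60 Mb. On chromosome 8 from 140 to 150 Mb it was 44 of 99 (44.4%), no higher than among all gained peaks. Median scores of gained peaks in the 10 windows lay between 4.40 and 5.56, against 5.46 for all gained peaks.

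Lost peaks had another spread over chromosomes. Chromosome 4 held 10.9% (8.95 to 13.1) of the lost and 5.51% (3.66 to 7.92) of the common parental peaks, and chromosome 7 held 6.86% (5.31 to 8.70) against 3.06% (1.72 to 5.00). The chromosome 4 value includes the 76 lost peaks between 49 and 50 Mb. Outside chromosomes 1 to 22 and X, the lost peaks included 60 on chromosome Y (5.92%) and 36 on unplaced contigs (3.55%), the common tagged peaks 23 (4.30%) and 17 (3.18%), and the gained peaks 19 (0.265%) and 24 (0.334%).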

How the data were processed

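The A498 members are 2 deposited GFP peak lists of 1 library each; the 2 A498 input samples were not analysed here. The submitters' processing notes name BWA, MACS2 and hg19, with no version or role. The names of the deposited peaks record merging, sorting and a mapping quality step, and 1 control library for each list. The score deposited by the authors was read as a −log10 value, since each list begins just above 2; whether p or q is not given. The read depth behind a peak is unknown.

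Peaks were paired by overlap of 1 bp or more. Shares carry exact (Clopper-Pearson) 95% intervals and medians order-statistic ones, which hold for counting error alone, as if peaks were independent. Pairing ran in Python 3.11.15 (pandas 2.3.3, numpy 2.4.6), intervals came from scipy 1.17.1, and figures from matplotlib 3.10.9. The rules were tested on 5000 simulated peaks, with 0 called wrongly, and 0 of 7718 tagged peaks differed from bedtools 2.31.1. Members and lists were chosen with earlier results of these data known. Peaks were named by rule: the 15 highest gained, the 10 highest lost, the 10 common of lowest rank sum, 5 of largest rank difference each way, the 5 widest of a class and the 5 fullest 1 Mb windows. Clusters, 10 Mb windows and other named peaks were chosen after seeing values. No hg19 annotation or sequence was used here, so planned genes, gene starts and motifs were not analysed.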

Additional observations from a re-analysis of the deposited data

How the results depend on the processing

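Of 64 alternative values of the 10 planned shares and differences, 31 stayed inside the reported interval, 32 left it and 1 turned in sign. With 50% reciprocal overlap, the share of tagged peaks at parental peaks (6.93%) was 4.50%, that of parental at tagged peaks (35.1%) 22.2%, that of gained peaks within 10 kb of another (19.4%) 20.7% and that of gained peaks at tagged 786-O peaks (54.4%) 16.4%; the median score of lost minus common peaks (-7.76) was -14.0 and the median width of gained minus common peaks (-65 bp) -9 bp. With midpoints within 200 bp these shares were 5.92%, 29.3% and, at tagged 786-O, 38.9%, and the gained width difference was -38 bp. With A498 lists of equal length they were 22.1%, 23.5%, 7.64% and 89.9%, the tagged list being cut to its 1563 highest peaks. The score differences were then -5.57 (gained, reported -8.00) and -14.6 (lost). Lost peaks at parental 786-O (28.7%) were 35.8%, and the gained width difference turned to 85.5 bp. With scores of 3 or more, 18.2% of gained peaks lay within 10 kb of another and 57.0% at tagged 786-O peaks. On chromosomes 1 to 22 and X 45.5% of lost peaks lay within 10 kb of another (49.6%). At 1 kb the spacing shares were 9.15% for gained and 26.3% for lost peaks, and at 100 kb 61.5% and 60.9%. Without clustered peaks, chosen after seeing the data, the first 2 shares were 3.14% and 27.2%, the score differences -5.55 and -4.10, the lost width difference (-89 bp) -55 bp, the spacing shares 18.1% and 19.9%, and lost peaks at parental 786-O 20.7%. MYC shares of gained peaks with (87.0%) and without (1.44%) a tagged 786-O peak were 54.0% and 8.46% with reciprocal overlap and 65.8% and 10.6% with midpoints. With equal lengths the share of those without was 0.813%, with a wide interval of 0.0206 to 4.45. These alternatives were also chosen after seeing the data. A shorter list or a stricter pairing rule holds fewer pairs by construction. The share of tagged peaks with a partner still rose in the shortened tagged list, which kept only the highest scores. Leaving out clusters lowers the spacing shares by construction and favours lower shares of peaks with a partner. The cause of other moves was not tested. Alternatives on gene starts and motifs were not run. No paired analysis was possible because each group is 1 library. Peak depth is unknown, so a peak missing from a list does not show that DNA was not recovered there.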
